A study of Mus musculus with 2 samples.

Results

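The Slc2a genes encode the facilitative glucose transporters, membrane proteins that let glucose and related sugars pass down their concentration gradient without using energy. In mouse beta cells the low-affinity transporter encoded by Slc2a2 is the classical route of glucose entry, and it lets glucose inside the cell follow blood glucose. Slc2a1 and Slc2a3 encode high-affinity transporters found in many tissues, and both genes are textbook targets of hypoxia-inducible factor. The family was described here by taking every probe set that the platform annotation assigns to a single gene among 10 listed Slc2a genes. This gave 19 probe sets for the 10 genes, out of 34945 probe sets with 1 gene and 18193 named genes. The symbols of all 10 genes were the same in the RefSeq table for GRCm38.p6, to which they were matched by Entrez identifier.

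Islets of adult mice were profiled on Affymetrix arrays to find genes that depend on the zinc finger transcription factor ZBTB20 in beta cells. One group was wildtype littermate control islets and the other was islets with a beta cell-specific Zbtb20 knockout, with 1 array in each group. Both groups were on a mixed background, were 2 to 3 months old per the labels, and were cultured overnight before freezing. The Cre driver, the deleted part of the gene and the number of animals behind an array are unknown here. Islet cells other than beta cells keep the gene in such a model.

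Whole islets mix beta cells with alpha, delta, PP and non-endocrine cells, so a lower signal can mean fewer cells of a type or less RNA per cell, and these cannot be told apart. The islet label was borne out by very high signals of Iapp (15324 and 14244 on the control and knockout-labelled arrays), Gcg (11215 and 10292) and Ins2 (9194 and 7786). Zbtb20 itself had 9 probe sets, of which 5 were lower and 4 higher on the knockout-labelled array, with a median log2 ratio of -0.062. It therefore gave no check of the genotype, and the array is called knockout-labelled. With 1 array per group there is no replicate error and no test was possible. Every ratio below is knockout-labelled over control and compares 2 RNA preparations.

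The upstream sequences of 3 members are shown because these genes gave the brightest signals of the family and their ratios differed: Slc2a1 was lower on the knockout-labelled array, Slc2a2 was higher and Slc2a5 was nearly equal. Each sequence is the 250 bases before the RefSeq start of the gene (GRCm38.p6), written 5′ to 3′ on the strand of the gene, which is the plus strand for all 3. The windows are chr4:119108495-119108744 for Slc2a1, chr3:28697653-28697902 for Slc2a2 and chr4:150119094-150119343 for Slc2a5. Capitals mark ACGTG, a form of the core letters bound by hypoxia-inducible factor, which was searched on both strands. Other forms of the core, such as GCGTG, were not searched and are not marked.
Slc2a1: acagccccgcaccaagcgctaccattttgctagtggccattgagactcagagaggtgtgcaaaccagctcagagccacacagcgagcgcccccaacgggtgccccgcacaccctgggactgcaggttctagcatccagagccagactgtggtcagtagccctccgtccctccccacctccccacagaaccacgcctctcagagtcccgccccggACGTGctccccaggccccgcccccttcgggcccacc
Slc2a2: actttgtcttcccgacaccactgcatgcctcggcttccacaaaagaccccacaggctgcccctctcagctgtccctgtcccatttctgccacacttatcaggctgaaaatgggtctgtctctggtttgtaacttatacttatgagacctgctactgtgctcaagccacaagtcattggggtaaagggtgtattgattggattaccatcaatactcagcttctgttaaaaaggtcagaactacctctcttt
Slc2a5: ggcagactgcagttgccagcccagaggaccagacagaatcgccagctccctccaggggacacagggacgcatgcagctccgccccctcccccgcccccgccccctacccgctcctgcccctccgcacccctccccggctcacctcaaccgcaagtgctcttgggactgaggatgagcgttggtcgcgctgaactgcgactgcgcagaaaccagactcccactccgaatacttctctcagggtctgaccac
The letters ACGTG stood once in the Slc2a1 window, 36 to 32 bases before the start, and in neither of the other two. Promoter entries were matched for 8 of the 10 genes, and Slc2a1 was the 1 gene of these 8 with a match. Of all 32851 promoter entries, 16.6% held the letters in the same window, so a match is common and describes the sequence only. Slc2a3 and Slc2a4 had no entry.

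The family split into genes with clear signals and genes at the level of background. As the files hold no detection calls, the median of each array (21.6 in control and 21.7 in the knockout-labelled array) served as a floor. At least 1 probe set was above the floor for 6 genes: Slc2a1, Slc2a2, Slc2a3, Slc2a4, Slc2a5 and Slc2a8. The other 4 genes, Slc2a6, Slc2a9, Slc2a10 and Slc2a12, were under it on both arrays with all of their 7 probe sets. Among the 19 probe sets, 8 were above the floor on both arrays, 1 on the control array only, and 10 on neither.

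**Figure D1:**
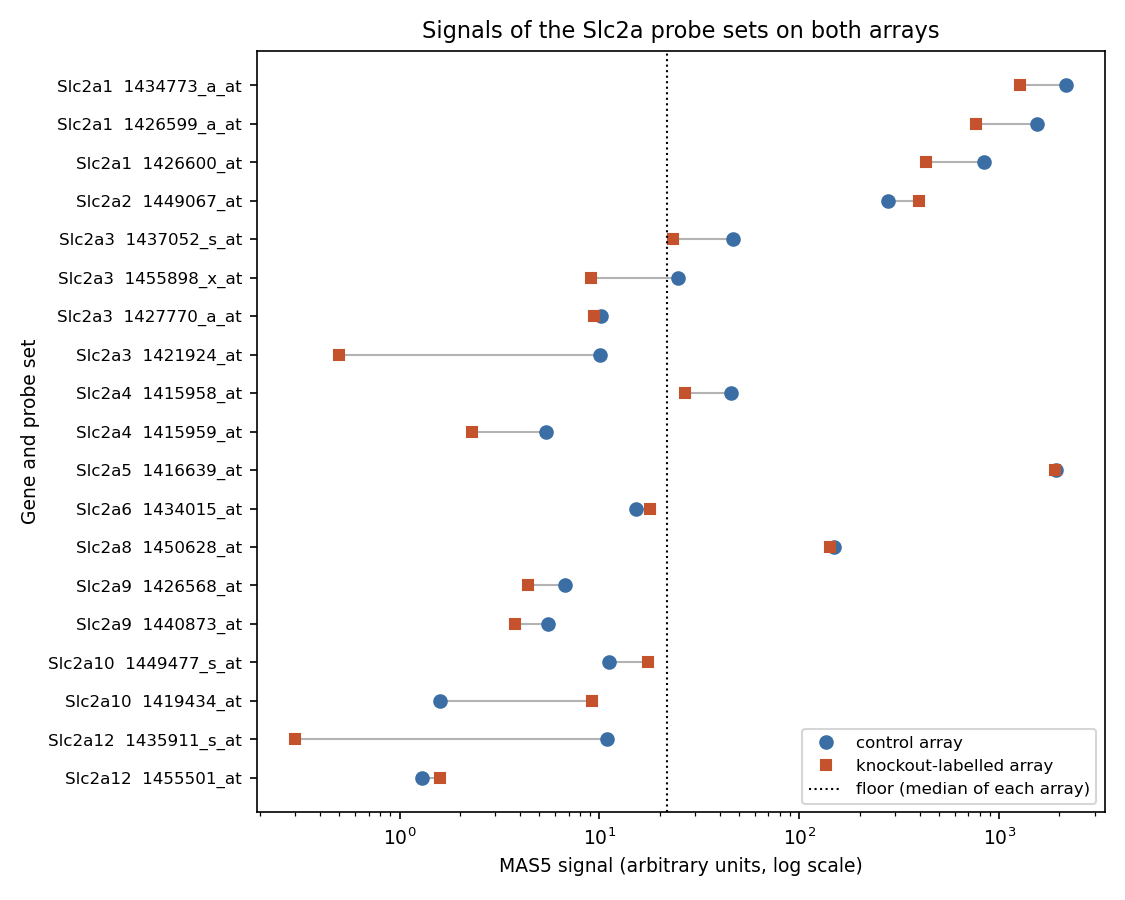
MAS5 signal (horizontal, log scale, arbitrary units) of each of the 19 Slc2a probe sets (vertical), with a circle for the control array and a square for the knockout-labelled array, joined by a line, and the floor dotted. The 3 Slc2a1 probe sets shift to the left from control to knockout-labelled, Slc2a2 shifts to the right, and the Slc2a5 symbols overlap. Long lines left of the floor join signals at background level.

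Slc2a1, the widely used basal glucose transporter gene, had lower signals in knockout-labelled islets with all of its 3 probe sets. The brightest, 1434773_a_at, went from 2164 in control to 1268, a 1.71-fold lower signal. Probe set 1426599_a_at went from 1543 to 761, which was 2.03-fold lower, and 1426600_at went from 837 to 432, 1.94-fold lower. Their log2 ratios were -0.77, -1.02 and -0.95, with an SD of 0.13 among the probe sets. For comparison, the 1394 named genes with 3 measured probe sets had a median SD of 0.25. That set includes weak probe sets and ratios bounded by the floor, so it is not one of like signal. All 3 Slc2a1 probe sets went in the same direction, although 2 of them, 1426599_a_at and 1426600_at, were designed from the same source sequence and all of them share the RNA.

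The spread of named genes with like signals gives a scale for these ratios. For each probe set the 500 named genes nearest in mean signal were taken among those above the floor on both arrays. The central 95% of log2 ratios of these genes ran from -0.63 to 0.41 around 1434773_a_at, from -0.53 to 0.41 around 1426599_a_at and from -0.56 to 0.74 around 1426600_at. All 3 Slc2a1 ratios lay below these ranges. Of the 8 Slc2a probe sets above the floor on both arrays, these 3 were the ones outside their range. The Slc2a3 probe set 1455898_x_at had a mean signal under the floor. All genes taken for it were brighter, so it had no range of like signal. The range includes genes that truly differ between the preparations and is not a test.

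Slc2a2, the gene of the main beta cell glucose transporter in mice, was the 1 measured member with a higher signal in knockout-labelled islets. Its single probe set, 1449067_at, went from 276 to 396, a 1.43-fold higher signal and a log2 ratio of 0.52. This lay within the central 95% of genes of like signal, from -0.62 to 0.76. Slc2a2 and Slc2a1 thus went in opposite directions. The signal of Slc2a1 was 7.83 times that of Slc2a2 on the control array and 3.20 times on the knockout-labelled array, a difference of -1.29 in log2 ratio. Signals of different probe sets are not transcript levels, so these multiples show an unequal change between the genes and not how many transcripts of each were present.

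Slc2a5, which encodes the fructose transporter of the small intestine, had one of the brightest signals of the family and was nearly equal on both arrays. Its single probe set, 1416639_at, gave 1914 on the control and 1905 on the knockout-labelled array, a log2 ratio of -0.0069. These signals stood at the 98.4th and 98.5th percentile of all probe sets on their arrays. The sign of so small a ratio turned with the scaling, to 0.058 with quantile normalization and 0.051 with loess. As Slc2a5 had 1 probe set, no other measurement of the gene on these arrays was available to set beside it. Slc2a8, whose transporter stays mainly on internal membranes, was also nearly equal, with signals of 150 and 142 and a log2 ratio of -0.078.

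Slc2a3, the gene of the neuronal high-affinity transporter, had low signals that were lower still in knockout-labelled islets. Probe set 1437052_s_at went from 46.6 to 23.4, a log2 ratio of -0.99 and a 1.99-fold lower signal that ended next to the floor. The ratio lay just inside the central 95% of genes of like signal, which began at -0.9986. It passed 2-fold when each array was divided by its median (-1.0005) or quantile normalized (-1.01). Probe set 1455898_x_at, built from the same source sequence, was above the floor on the control array only, with 24.8 and 9.1, and was at least 1.14-fold lower. Its ratio could therefore not have been above 1. The remaining 2 probe sets of the gene were under the floor on both arrays, 1427770_a_at with 10.2 and 9.4 and 1421924_at with 10.1 and 0.5. The evidence for Slc2a3 therefore rests on 1 source sequence, and the suffixes _s_at and _x_at mark probe sets that can also bind related transcripts.

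Slc2a4, the gene of the insulin-responsive transporter of muscle and fat, was likewise at a low signal. Probe set 1415958_at went from 45.6 to 26.9, a log2 ratio of -0.76, within the wide range of -1.05 to 1.03 seen for genes of like signal. Its other probe set, 1415959_at, gave 5.4 and 2.3, under the floor on both arrays.

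The members under the floor gave no interpretable ratio. Slc2a9 encodes a urate transporter, and Slc2a6, Slc2a10 and Slc2a12 encode less studied members of the family. The 7 probe sets of these genes had signals from 0.3 to 18.0 over both arrays. Slc2a6 came nearest to the floor, with 15.2 on the control and 18.0 on the knockout-labelled array. Slc2a10 gave 11.1 and 17.4 with 1449477_s_at but 1.6 and 9.2 with 1419434_at. Slc2a12 gave 10.9 and 0.3 with 1435911_s_at but 1.3 and 1.6 with 1455501_at, so a wide ratio in 1 probe set was not seen in the other.

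**Figure D2:**
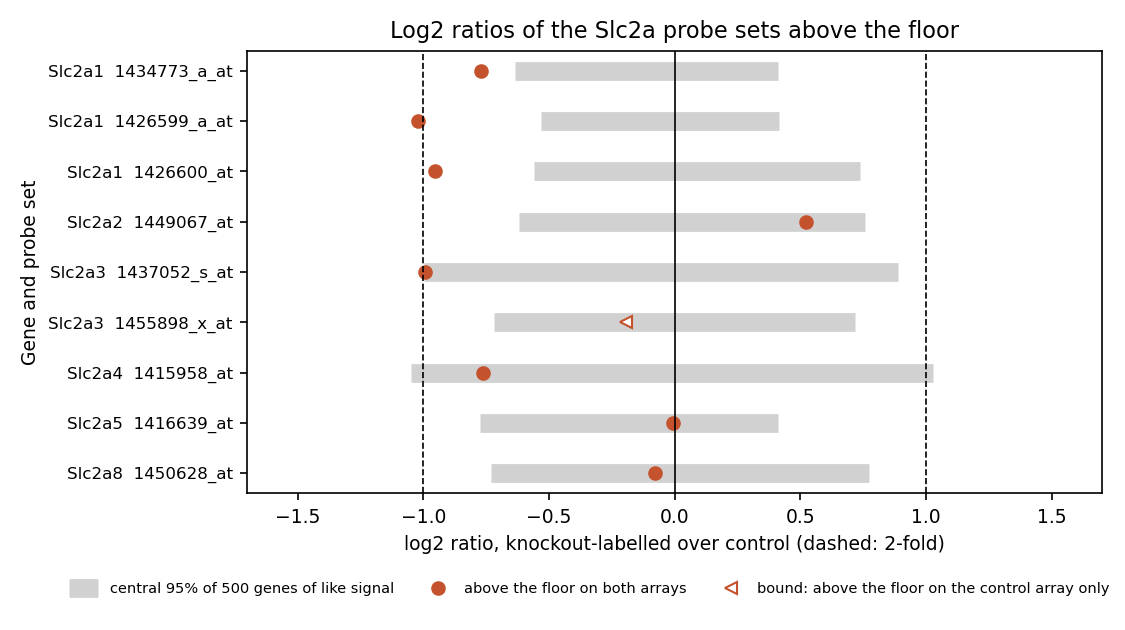
Log2 ratio of knockout-labelled over control (horizontal) for the 9 Slc2a probe sets above the floor on at least 1 array (vertical). Grey bars span the central 95% of the 500 named genes nearest in mean signal among those above the floor on both arrays. Dashed lines mark 2-fold, and the open triangle is a bound. The probe set of the triangle was weaker than all genes of its bar, so the bar is not one of like signal. The Slc2a1 points, from -1.02 to -0.77, lie left of their bars, and the other circles lie within theirs.

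Ranked by signal within each array, the brightest probe sets of the genes stood in nearly the same order. On the control array the order was Slc2a1, Slc2a5, Slc2a2, Slc2a8, Slc2a3 and Slc2a4, followed by the genes under the floor. On the knockout-labelled array Slc2a5 came first and Slc2a1 second, and Slc2a4 stood before Slc2a3. The first exchange went with the lower Slc2a1 signal, since Slc2a5 was nearly equal on both arrays. Slc2a3 and Slc2a4 were next to each other at 46.6 and 45.6 on the control array. No spread over samples exists to say which neighbours differ, and probes differ in binding, so the order is one of signals and not of transcript levels.

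Counted by gene, 0 of the 6 measured Slc2a genes reached 2-fold in either direction, with each gene represented by its brightest probe set. Of all 11802 measured named genes, 3.26% did, 1.82% upwards and 1.44% downwards. By probe set, 1 of 9 was at least 2-fold lower, the Slc2a1 probe set 1426599_a_at, against 1.29% of all measured 1-gene probe sets. On the higher side it was 0 of 9, against 1.88%. It was under 2-fold with quantile normalization (-0.97) and with loess (-0.98). At a limit of 1.5-fold, 3 of the 6 genes were lower, Slc2a1, Slc2a3 and Slc2a4, against 6.2% of all genes, and 0 were higher, against 6.9%. The median log2 ratio of the 6 genes was -0.42, and that of all measured genes was 0. These 6 genes include 2 weak ones, and without weak genes, with the floor at the 70th percentile, the median over Slc2a1, Slc2a2, Slc2a5 and Slc2a8 was -0.043.

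Other genes of sugar entry were described from lists of the pathway. Of 7 sodium-glucose cotransporter genes, whose products use the sodium gradient to carry sugars, 3 were above the floor on at least 1 array. Slc5a10 went from 10.2, under the floor, to 144, at least 6.68-fold higher. Slc5a1, the intestinal cotransporter gene, went from 40.8 to 65.3 with a log2 ratio of 0.68, while its other probe set gave 0.15. Slc5a2 was at 12.3 and 22.0, next to the floor. So 1 of 3 measured genes was at least 2-fold higher, against 1.82% of all genes. Slc5a10 and Slc5a2 passed the floor on the knockout-labelled array only, so their ratios could not have been below 1.

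The genes that trap sugars by phosphorylation had ratios on both sides of 1. Of 6 measured genes, 1 was past 2-fold upwards and 1 downwards, with a median log2 ratio of -0.089. Over all measured named genes the shares were 1.82% upwards and 1.44% downwards. The gene at least 2-fold lower was Hk2, a high-affinity hexokinase gene, which went from 56.1 to 28.0. Hk1 was at 105 and 90.6, a log2 ratio of -0.22. Hk3 was at least 2.43-fold higher in its brightest probe set, from 19.4 to 52.4, but its other measured probe set had a log2 ratio of -0.22. The brightest Hk3 probe set passed the floor on the knockout-labelled array only, so its ratio could not have been below 1. The ketohexokinase gene Khk, which acts on fructose, was at 39.9 and 38.1.

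Among genes that act on the transporter proteins, members of the alpha-arrestin family had the largest ratios. Txnip, whose product promotes the removal of the Slc2a1 transporter from the cell surface, gave a signal of 622 on the control array and 2424 on the other, 3.90-fold higher, and its other probe set had a log2 ratio of 1.77. Arrdc4, its relative, was at 92.1 and 209, 2.27-fold higher, with 1.20 in the other probe set. These 2 genes were the ones at least 2-fold higher among 19 measured genes of trafficking, glycosylation and turnover, against 1.82% of all genes. In this list 0 were at least 2-fold lower, against 1.44%, and the median was -0.036. Arrdc3 had a log2 ratio of -0.26.

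The remaining genes of that list had smaller ratios in their brightest probe sets, in both directions. The Rab GTPase-activating genes Tbc1d1 and Tbc1d4, known from insulin-regulated transporter traffic, had log2 ratios of 0.67 and -0.68. The 3 other measured probe sets of Tbc1d1 ran from 0.17 to 1.03. The adaptor gene Gipc1, whose product binds the tail of the Slc2a1 transporter, was at -0.58 and the tether gene Aspscr1 at 0.58. Stom, which encodes the membrane protein stomatin and is named here after its values were seen, went from 503 to 338, and its 4 other measured probe sets ran from -0.90 to -0.34. Mgat4a, the glycosyltransferase gene that keeps the Slc2a2 transporter at the beta cell surface, was at 36.6 and 33.9.

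Transcription factor genes known to act upstream of Slc2a2 showed no common direction. Of 8 measured genes, 4 had ratios above 1 and 4 below, 0 reached 2-fold, and the median log2 ratio was -0.026. As 3.26% of all measured named genes reached 2-fold, a count of 0 among 8 was close to that share. Foxa2 was at 609 and 869, Neurod1 at 1430 and 1863 and Nkx2-2 at 484 and 559, all higher on the knockout-labelled array. Pdx1 was at 446 and 348 in its brightest probe set but had a log2 ratio of 0.34 in the other. Foxa3 was at 153 and 94.8. Nkx6-1 had a log2 ratio of 0.059, Hnf4a one of -0.11 and Pax6 one of -0.13. Mafa and Rfx6 were not analysed here.

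**Figure D3:**
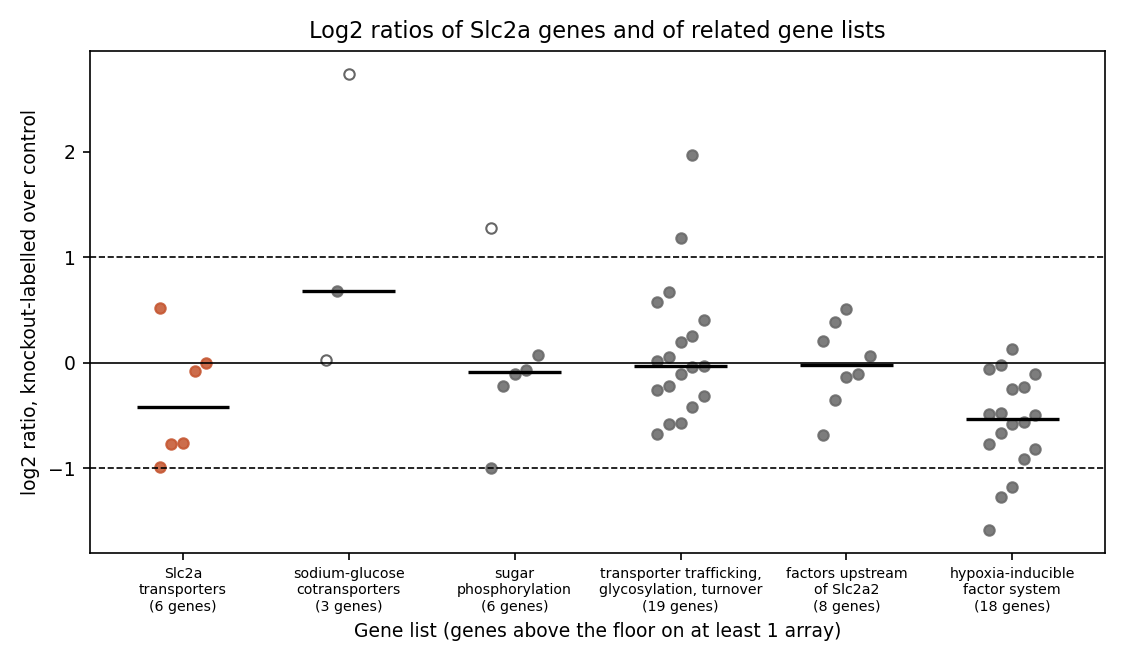
Log2 ratio of knockout-labelled over control (vertical) for each measured gene of the Slc2a family and of 5 related lists (horizontal), with 1 point per gene, open where a gene was above the floor on 1 array only. Bars are list medians and dashed lines mark 2-fold. The Slc2a points reach from -0.99 to 0.52, and the hypoxia-inducible factor list has its median at -0.53.

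The lower Slc2a1 and Slc2a3 signals stood beside lower signals of other hypoxia-inducible factor system genes. Of 18 such genes outside the transporters, all measured, 17 had ratios below 1, 3 were at least 2-fold lower and 0 were 2-fold higher, with a median log2 ratio of -0.53. Over all measured named genes, 49.8% had ratios below 1, 1.44% were at least 2-fold lower and 1.82% at least 2-fold higher. Those at 2-fold were the gene Egln3 of a prolyl hydroxylase that marks the factor for breakdown (from 70.2 to 23.4), P4ha2, which encodes a hydroxylase of collagen (from 524 to 217), and the adrenomedullin gene Adm (from 82.3 to 36.4). Bnip3, a mitophagy receptor gene, went from 3769 to 1998, Egln1 from 527 to 298 and Pdk1 from 289 to 169. Other measured probe sets differed for some of these genes, with log2 ratios of -0.85 for Egln3, -0.19 for Egln1 and -0.92 to -0.036 for Pdk1. The factor genes themselves differed less, with log2 ratios of -0.25 for Hif1a and -0.11 for Epas1. The Slc2a1 log2 ratios of -1.02 to -0.77 lay between the list median and its lowest value of -1.58. Whether the genes share a cause was not tested.

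Markers of other cell types also differed between the arrays. For comparison, 1.44% of all measured named genes were at least 2-fold lower and 1.82% at least 2-fold higher. Of 8 measured acinar cell markers 5 were at least 2-fold lower, with a median log2 ratio of -1.04 and a summed signal of 38211 on the control and 19982 on the knockout-labelled array. Cela3b went from 8913 to 5590, Prss2 from 6649 to 3013 and Ctrb1 from 5450 to 2834, while the acinar factor gene Bhlha15 was at 714 and 741 in its brightest probe set, the other giving a log2 ratio of -0.52. Ptf1a, another acinar factor gene, was under the floor on both arrays. Macrophage markers were higher, with 4 of 11 measured genes at 2-fold, a median of 0.57 and summed signals of 924 and 1470. Fcer1g, among those at 2-fold, passed the floor on the knockout-labelled array only (20.2 and 51.8), so its ratio could not have been below 1. Fibroblast and stellate cell markers had 2 of 5 measured genes at least 2-fold lower and summed signals of 220 and 141. Dcn (61.6 and 19.8), among those called, and Lum (31.7 and 19.7) passed the floor on the control array only. Their ratios could therefore not have been above 1. The part of these cell types in the Slc2a ratios was not tested.

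Measured markers of vessels and nerves had smaller median ratios than the acinar, macrophage and fibroblast lists, and no blood marker could be measured. For scale, 3.26% of all measured named genes were at 2-fold in either direction. A count of 0 in a short list is near that share. Endothelial markers had 0 of 9 measured genes at 2-fold, a median log2 ratio of -0.18 and summed signals of 1203 and 1137. Esam was at 232 and 192, Plvap at 228 and 193 and Eng at 212 and 210. Kdr had the largest ratio of the list and was higher, from 40.9 to 72.8, a log2 ratio of 0.83. It was 1 of 2 endothelial markers with ratios above 1, against 7 below. The 3 red blood cell markers with a 1-gene probe set, Hba-a1, Alas2 and Slc4a1, were all under the floor on both arrays, with signals from 0.5 to 15.9. Of 3 measured neuron and Schwann cell markers 0 were at 2-fold, and Snap25, which endocrine cells also express, was at 1239 and 1341.

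Endocrine markers are given beside the Slc2a2 value. The shares of all measured named genes at 2-fold were 1.82% higher and 1.44% lower. Beta cell markers had 0 of 9 measured genes at 2-fold and a median log2 ratio of -0.11, with summed signals of 33912 and 30206. The median of these markers was slightly below 0 by their brightest probe sets, with 6 ratios below 1 and 3 above, while the Slc2a2 log2 ratio was 0.52. Other probe sets of the markers differed. The 3 others of Iapp ran from -0.17 to 0.85, and those of Pdx1 and Abcc8 gave 0.34 and 0.15. Of 4 measured alpha cell markers 1, the amino acid transporter gene Slc38a5, was at least 2-fold higher, with a list median of -0.24. The other 3 had ratios below 1, among them Ttr at 14021 and 10091 and Gcg at 11215 and 10292. Delta and PP cell markers had a median of 0.23 over 4 genes with 0 at 2-fold, but their summed signal went from 24159 to 20321. Ppy, the hormone gene of PP cells, went from 12702 to 8095 and was the 1 gene of these 4 with a ratio below 1. Sst was at 9661 and 9770 and Rbp4 at 1710 and 2333. Duct cell markers had a median of -0.30 over 4 genes with 1, Car2, at least 2-fold lower. Car2 (57.8 and 11.2) passed the floor on the control array only, so its ratio could not have been above 1.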

How the data were processed

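The authors deposited MAS5 signals, intensities on a linear scale, for 45037 probe sets on each of 2 arrays. The tool comes from the submitters' processing notes. Its version, scaling target, background step and detection calls were not stated in the labels or the table. These intensities were not normalized again. Genes were named from the platform annotation, which is dated, through probe sets with 1 gene. For the log2 ratio, signals under the median of an array were set to that median, the floor. Genes under it on both arrays were left out, which left 11802 genes. A ratio with 1 array under the floor is a bound, written "at least". A gene was represented by the probe set with the highest mean log2 signal, and called from 2-fold on.

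With 1 array per group the number of arrays limits the precision, and no p-value can be given. The procedure was tested on simulated data, with planted changes larger than the Slc2a ratios in genes of clear signal. That test does not cover smaller ratios or genes near the floor. Python 3.11.15, pandas 2.3.3 and statsmodels 0.14.6 were used. The members and gene lists were chosen with earlier results of these data known. Named are all Slc2a members, Zbtb20, list genes at 2-fold with up to 4 others by size of ratio, some preset genes, and up to 3 markers per cell type by signal. Some further markers are named because of their values. Alternatives were median, quantile and loess scaling, floors at the 30th and 70th percentile, a pseudocount of 16, the mean over probe sets, and limits of 1.5-fold and 3-fold.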

Additional observations from a re-analysis of the deposited data

How the results depend on the processing

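The number of Slc2a genes at least 2-fold higher was 0 under all 9 alternatives run. The number at least 2-fold lower was 0 as reported, 1 (Slc2a3) when arrays were divided by their median or quantile normalized, and 3 at a limit of 1.5-fold. The median log2 ratio of the measured Slc2a genes was -0.42 as reported. It was -0.078 over 9 measured genes when the floor was the 30th percentile, and -0.043 for the 4 genes measured when it was the 70th. Of 51 log2 ratios recomputed for the 9 measured probe sets, 47 moved by less than 0.23, the median SD among probe sets of 1 gene. The other 4 belonged to the weak Slc2a3 and Slc2a4 probe sets. Slc2a1 stayed between -1.03 and -0.72 over its 3 probe sets and Slc2a2 between 0.50 and 0.52. Under that higher floor the Slc2a3 and Slc2a4 probe sets could not be given a value. No paired analysis was possible because each group holds 1 array. Signals next to the floor limit what can be said of Slc2a3 and Slc2a4, and the 4 genes under it have no usable ratio.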

Other observations

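Slc2a13, a further family member that carries myo-inositol with protons and was outside the 10 genes, had 1 probe set with signals of 124 in control and 140 in knockout-labelled islets, a log2 ratio of 0.18.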
